A study of Mus musculus with 6 samples.

Results

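The AP-1 and EGR immediate early factors were examined in mouse lung as 10 genes: Fos, Fosb and Fosl2 of the FOS family, Jun, Junb and Jund of the JUN family, Egr1, Egr2 and Egr3 of the EGR family, and Atf3. They were chosen by gene symbol, and all 10 were found once each among the 41388 genes counted. RNA sequencing of whole lung compared 3 wild-type C57BL/6J mice (WT1 to WT3) with 3 mice of strain B6.129S7-Zpbp2tmZuk/Mmjax on the C57BL/6J background (KO1 to KO3), which lack exons 1 to 3 at the 5′ end of Zpbp2. Adult mice of both genotypes came from 1 colony under a 12h:12h light cycle, and the lungs were taken 7 h after lights on (ZT7). No agent was given, the labels do not state sex, and the deletion removes regulatory sequence together with the exons, so effects of the protein and of the locus cannot be told apart.

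Immediate early genes are transcribed within minutes of a growth factor, cytokine, stretch or stress signal from factors that the cell already holds, such as SRF with its ELK and MRTF partners and CREB, and most of their mRNAs are short-lived. FOS and JUN proteins pair through leucine zippers to form AP-1, which binds TGA(C/G)TCA sites, and ATF3 is a related leucine zipper protein induced by stress. EGR proteins bind GC-rich sites through zinc fingers, and in lung AP-1 and EGR1 are known for their part in the response of epithelium, endothelium and macrophages to injury.

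Promoter stretches are shown for 3 members whose 100 bases from -110 to -11 of a RefSeq start site (GRCm38.p6) hold letters that SRF, CREB or ATF proteins are known to recognise, and for Junb, which had none of the searched letters there. Capitals mark TGACGT (written ACGTCA where it lies on the other strand), TGACNTCA, TATAAA or a CArG box. The Fos stretch is chr12:85473780-85473879 on the plus strand, the Jun stretch chr4:95052233-95052332 on the minus strand, the Egr2 stretch chr10:67537759-67537858 on the plus strand and the Junb stretch chr8:84978759-84978858 on the minus strand. Each lies upstream of a start site and overlaps no annotated exon.
Fos: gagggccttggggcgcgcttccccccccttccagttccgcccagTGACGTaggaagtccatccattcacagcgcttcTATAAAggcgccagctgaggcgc
Jun: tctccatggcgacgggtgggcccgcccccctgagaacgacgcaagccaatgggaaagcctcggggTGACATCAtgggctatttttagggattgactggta
Egr2: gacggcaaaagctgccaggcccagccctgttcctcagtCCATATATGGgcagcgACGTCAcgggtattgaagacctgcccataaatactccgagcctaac
Junb: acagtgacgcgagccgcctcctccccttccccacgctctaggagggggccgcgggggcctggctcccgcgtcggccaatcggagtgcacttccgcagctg

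In Fos the capitals are TGACGT at -66 to -61 and TATAAA at -33 to -28. In Jun they are TGACATCA at -45 to -38, and in Egr2 a CArG box at -72 to -63 and ACGTCA at -56 to -51. The search covered 12 start-site entries of 8 members, each with 250 bases before and 50 bases after the start. Egr1 was left out of the search with all entries of its chromosome, and Egr3 was not matched to an entry. Junb held TATAAA at 1 to 6, outside its printed stretch, Atf3 held ACGTCA at -8 to -3, and Fosb and Fosl2 each held GCGGGGGCG, a match to the EGR letters GCGNGGGCG. Among 32851 mouse promoters of this length, 7.51% held TGACGT, 8.83% TGACNTCA (which can overlap TGACGT), 7.81% the AP-1 letters TGANTCA, 1.63% a CArG box and 5.55% GCGNGGGCG, all on either strand, while 8.32% held TATAAA on the gene's strand. The letters were chosen after the sequences had been seen, and a match describes the sequence only.

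The libraries held between 59134950 (KO3) and 71354388 (WT1) counts, and single members between 168 and 34983 counts. Zpbp2 was almost unread in lung, with 20, 15 and 7 counts in WT1, WT2 and WT3 and 1, 0 and 0 in KO1, KO2 and KO3. The alveolar type 2 markers led by Sftpc and the alveolar type 1 markers led by Ager were present in every library. KO2 and KO3, labelled as different mice, were nearly the same sample: from 2000 to 20000 counts in the pair their variance was 1.93 times the counting variance, against 8.82 to 20.7 times in the other pairs of a genotype, and from 20000 counts 3.40 against 32.2 to 135 times. Between 20 and 200 counts they stood apart little, at 1.70 against 1.84 to 3.47 times. They were therefore summed and counted as 1 sample in the reported comparison (3 WT and 2 KO samples), and each factor is also given with the 6 libraries kept separate. WT3 and KO1 stood apart through squamous epithelium genes led by Krt4, with summed levels of 4670 and 8947 CPM (counts per 1000000 counts of the scaled library) against 13.2 to 18.5 CPM in the other 4 libraries. Since whole lung was sequenced, fewer cells of a type and less RNA per cell cannot be told apart in any value below.

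**Figure D1:**
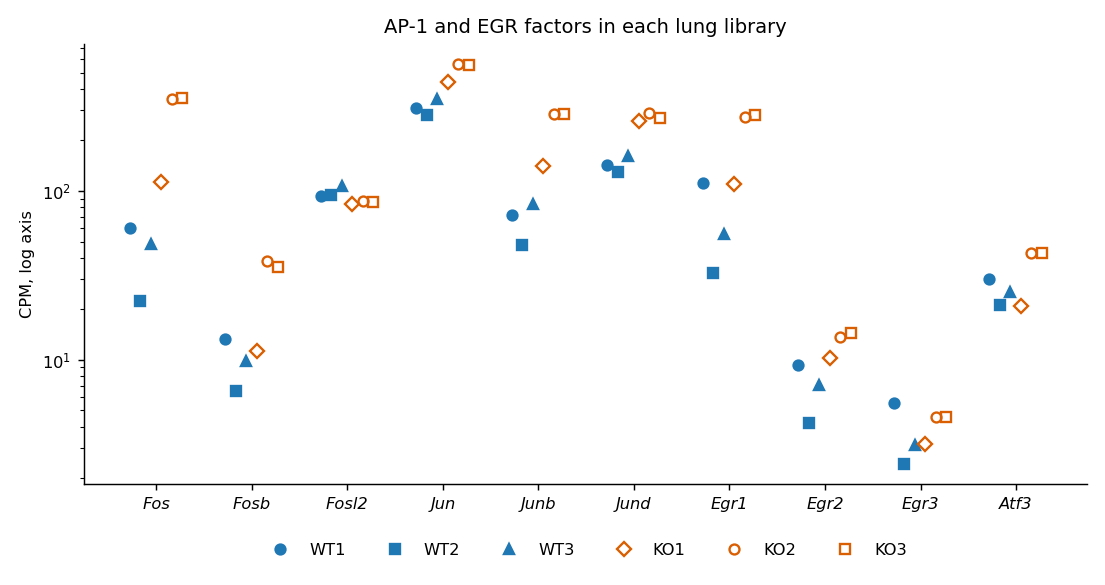
Level of each of the 10 genes in each of the 6 lung libraries, in CPM on a log axis, with filled blue symbols for WT and open orange symbols for KO. All KO symbols lie above all WT symbols for Fos, Jun, Junb, Jund and Egr2 and below them for Fosl2, and KO1 is the lowest KO library in all 10 genes.

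Among the 10 factors, 5 (Fos, Jun, Junb, Jund and Egr2) were higher in every KO library than in every WT library, and Fosl2 was lower in every KO library. Such full separation was common in these libraries: 20.1% of the 18660 genes tested lay above and 20.7% below. Jund, the JUN protein that most cells make at rest, was the only member that passed the test, 1 of 10 where edgeR called 2.28% of all genes tested (1.38% higher and 0.906% lower in KO). With the 6 libraries kept separate, Fos, Jun, Junb and Jund were called, all higher in KO, 4 of 10 against 18.9% of all genes (9.81% higher and 9.07% lower). The log2 fold change was above 0 for 9 of 10 members (52.2% of all genes) and again for 9 with the 6 libraries separate (51.5%). In the reported comparison its median was 0.87 for the members and 0.02 for all genes tested. Before adjustment, 5 members had a p of at most 0.05 (27.3% of all genes), as did 8 (35.3%) with the 6 libraries separate.

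Fos, on chromosome 12 (85473890-85477273, plus strand), encodes the short-lived partner that makes JUN a strong activator. Its level was 60.1, 22.3 and 48.6 CPM in WT1, WT2 and WT3 and 113, 349 and 355 CPM in KO1, KO2 and KO3. Every KO library lay above every WT library, but KO1 stood closer to the WT libraries than to KO2 and KO3, whose mean was 3.11 times KO1. The mean was 43.7 ± 19.4 CPM in WT (SD, n = 3) and 233 ± 169 CPM in KO (SD, n = 2). The log2 fold change of 2.42 (SE 0.62) was the largest of the 10 and did not pass the threshold (adjusted p = 0.0893, edgeR quasi-likelihood test). It passed with the 6 libraries kept separate, at 2.64 (SE 0.55, adjusted p = 0.0242, edgeR).

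Fosb, on chromosome 7 (19302696-19310051, minus strand), encodes a close relative of FOS. It measured 13.2, 6.54 and 9.86 CPM in the WT libraries and 11.2, 38.6 and 35.2 CPM in KO1, KO2 and KO3. KO1 fell within the WT range, so the genotypes overlapped, and KO2 and KO3 were the only libraries above it. KO over WT was 1.29 on the log2 scale (SE 0.56, adjusted p = 0.215, edgeR), and 1.52 (SE 0.49, adjusted p = 0.0765) with the 6 libraries separate.

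Fosl2, on chromosome 5 (32135801-32157842, plus strand), encodes FRA2, a FOS relative without the strong activation domain of FOS. It ran against the other 9: 93.5, 94.5 and 107 CPM in WT and 83.7, 86.8 and 86.3 CPM in KO. The 3 KO libraries lay within 1.04 times of one another and all below WT. The log2 fold change of -0.21 (SE 0.08) did not pass the test (adjusted p = 0.173, edgeR), nor did it with the 6 libraries separate (-0.20, SE 0.06, adjusted p = 0.0706, edgeR), though DESeq2 called it there (adjusted p = 0.0237). Fosl2 is the longest member (9680 exonic bases), and with an offset for exon length and GC content its log2 fold change was -0.07 (SE 0.06, adjusted p = 0.605, edgeR).

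Jund, on chromosome 8 (70698949-70700616, plus strand), had 142, 129 and 160 CPM in WT1, WT2 and WT3 and 259, 289 and 270 CPM in KO1, KO2 and KO3. It was the member in which the KO libraries were most alike among those higher in KO: KO2 and KO3 averaged 1.08 times KO1. It rose from 144 ± 15.7 CPM in WT (SD, n = 3) to 269 ± 14.8 CPM in KO (SD, n = 2), which is 0.91 on the log2 scale (SE 0.11; edgeR, adjusted p = 0.0446). The call was lost when any 1 of WT1, WT2, WT3 or KO1 was left out, with log2 fold changes of 0.83 to 0.99 and adjusted p-values of up to 0.189. Over all genes those fits called 0 without a WT library and 17 without KO1. Jund is also the shortest member (1668 exonic bases) and the richest in G and C (67.2%), and across 18516 genes longer exons went with lower log2 fold changes (Spearman rho -0.33, a description, since genes are no replicates). With an offset for length and GC content the log2 fold change was 0.52 (SE 0.11, adjusted p = 0.129), and with that offset and 6 separate libraries 0.56 (SE 0.08, adjusted p = 0.0152, edgeR).

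Jun, on chromosome 4 (95049034-95052222, minus strand), encodes c-JUN, the main transactivating JUN protein. It measured 310, 281 and 349 CPM in WT and 443, 564 and 554 CPM in KO. The genotypes did not overlap and KO1 again was the lowest KO library. On the log2 scale KO exceeded WT by 0.68 (SE 0.14, adjusted p = 0.0657, edgeR), and 0.73 (SE 0.12, adjusted p = 0.0133) with the 6 libraries separate, where it passed.

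Junb, on chromosome 8 (84974484-84978718, minus strand), encodes a JUN protein that often restrains c-JUN. It measured 72.2, 47.7 and 83.4 CPM in WT1, WT2 and WT3, 140 CPM in KO1, and 285 and 284 CPM in KO2 and KO3. KO1 lay between the genotypes' other libraries, 1.68 times the highest WT library, and KO2 and KO3 averaged 2.03 times KO1. The fitted log2 difference was 1.65 (SE 0.37, adjusted p = 0.0732, edgeR), and with the 6 libraries separate 1.80 (SE 0.33, adjusted p = 0.0177), which passed. The study itself chose Fos and Junb from these libraries, so their direction here is not independent evidence.

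Exons of all 3 JUN genes overlap another gene on the opposite strand, and whether counting used strand is not given in the sources used here. The partner of Jun, Junos, had 6.77 to 8.72 CPM and that of Jund, Gm11175, 0.37 to 1.89 CPM over the 6 libraries, both far below the JUN genes. The partner of Junb, Prdx2, which encodes a peroxiredoxin, had 112 to 120 CPM in WT and 134 to 148 CPM in KO, more than Junb itself in every WT library. Reads in the shared exons cannot be assigned with certainty.

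**Figure D2:**
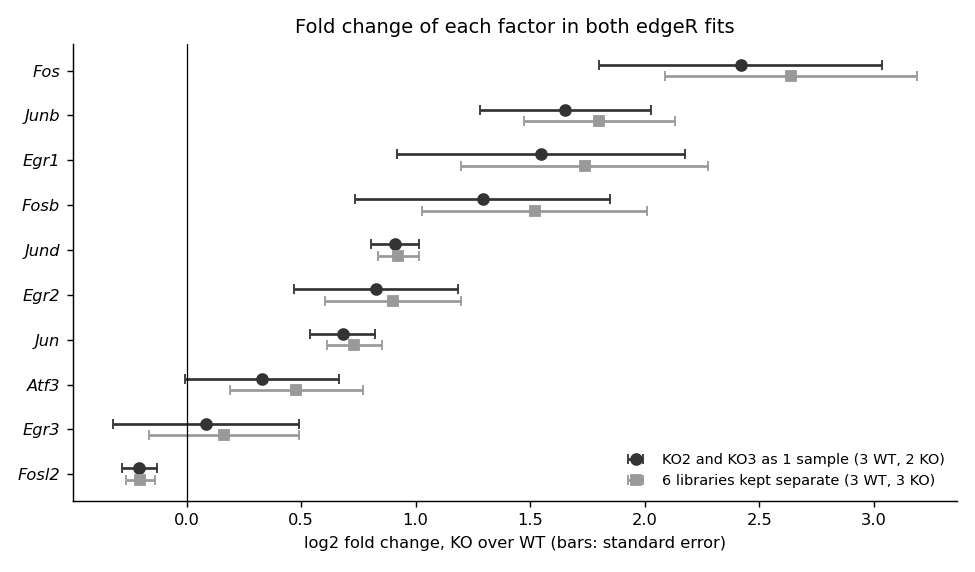
log2 fold change (KO over WT) of the 10 factors with its standard error, as black circles with KO2 and KO3 counted as 1 sample and as grey squares with the 6 libraries kept separate. Fos has the largest value in both fits (2.42 and 2.64), Jund a smaller value with a short error bar (0.91 and 0.92), and Fosl2 alone lies below 0.

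Egr1, on chromosome 18 (34859823-34864984, plus strand), encodes the EGR factor induced most widely by growth factors and injury. It measured 111, 32.5 and 55.4 CPM in WT1, WT2 and WT3 and 110, 274 and 280 CPM in KO1, KO2 and KO3. WT1 and KO1 were level, so the genotypes overlapped. Its log2 fold change was 1.55 (SE 0.63, adjusted p = 0.194, edgeR), and 1.74 (SE 0.54, adjusted p = 0.0698) with the 6 libraries separate.

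Egr2, on chromosome 10 (67535475-67542188, plus strand), encodes a factor of myelinating and immune cells. Its levels were low, 9.26, 4.19 and 7.04 CPM in WT and 10.2, 13.6 and 14.5 CPM in KO. KO1 exceeded WT1 only slightly, by 1.10 times. Fitted over the libraries, the log2 fold change was 0.83 (SE 0.36, adjusted p = 0.216, edgeR), and 0.90 (SE 0.30, adjusted p = 0.0803) with the 6 libraries separate.

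Egr3, on chromosome 14 (70077203-70082614, plus strand), encodes an EGR factor of lymphocytes, muscle spindles and neurons. It measured 5.51, 2.39 and 3.14 CPM in WT and 3.18, 4.60 and 4.59 CPM in KO, and WT1 was the highest library of all. The log2 fold change of 0.08 (SE 0.40, adjusted p = 0.916, edgeR) changed sign when WT2 or WT3 was left out, and with the 6 libraries separate it was 0.16 (SE 0.33, adjusted p = 0.767).

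Atf3, on chromosome 1 (191170296-191218039, minus strand), encodes a stress-induced repressor and partner of JUN. It measured 30.1, 20.9 and 25.2 CPM in WT1, WT2 and WT3 and 20.8, 42.5 and 43.0 CPM in KO1, KO2 and KO3. KO1 was the lowest of all 6 libraries while KO2 and KO3 were the highest. A log2 fold change of 0.33 resulted (SE 0.34, adjusted p = 0.581, edgeR), and 0.48 (SE 0.29, adjusted p = 0.292) with the 6 libraries separate.

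The members did not vary alike among the mice of 1 genotype. Egr1 and Fos were the most variable in WT, with the highest library at 3.42 and 2.70 times the lowest, and only 2.21% and 2.67% of the 15151 genes with a mean of at least 1 CPM varied as much. Fosl2 varied by 1.15 times (39.4% of those genes varied as much), and Jun and Jund both by 1.24 times (21.0% and 20.9% of genes), against a median of 1.12 times. In KO the widest ranges were those of Fosb, at 3.44 times, Fos, at 3.14 times, and Egr1, at 2.55 times, all between KO1 and the pair KO2 and KO3. The position of single libraries recurred: WT2 was the lowest WT library in 9 of 10 members (31.7% of all genes tested) and KO1 was below both KO2 and KO3 in 10 of 10 (42.7%). The summed level of the members was 848, 641 and 849 CPM in WT1, WT2 and WT3, 1194 CPM in KO1, and 1948 and 1926 CPM in KO2 and KO3.

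With KO2 and KO3 both left out, KO1 alone remained against the 3 WT libraries, and it was assumed to vary as WT does. The log2 fold change then was 1.37 for Fos, 1.04 for Junb, 0.50 for Jun, 0.84 for Jund, 0.72 for Egr1 and 0.18 for Fosb, and -0.29 for Atf3 and -0.22 for Egr3. In that edgeR fit 0 members and 0 of all genes were called. Leaving out this pair thus moved the fold of Fos, Fosb, Junb, Egr1 and Atf3 by more than 1.5 times, while that of Jund moved little.

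Other ways of processing the counts moved the number of members called between 0 and 8 of 10, and the share of all genes called moved as well. DESeq2 called 4 members and 21.0% of all genes with KO2 and KO3 as 1 sample, and 8 members (7 higher, and Fosl2 lower) and 25.9% with the 6 libraries separate. With the 6 libraries separate, edgeR called 4 members and 13.3% of genes with the length and GC offset, and 2 members and 6.42% with a block for the replicate number. Without WT3 and KO1, the libraries with squamous genes, 7 members (Fos, Fosb, Jun, Junb, Jund, Egr1 and Atf3) and 11.9% of genes were called, on 1 residual degree of freedom. That fit has a single KO sample, the sum of KO2 and KO3, so its spread comes from WT1 and WT2 only and the KO sample is assumed to vary alike. Jund alone was called under RLE scaling (2.29% of genes), library size alone (1.64%), no filter on low counts (1.53%), a minimum of 10 counts (5.54%), without KO2 (1.92%) and without KO3 (2.26%). No member was called without KO1 (0.0883% of genes), with the length and GC offset or without any single WT library (all 0.0%).

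**Figure D3:**
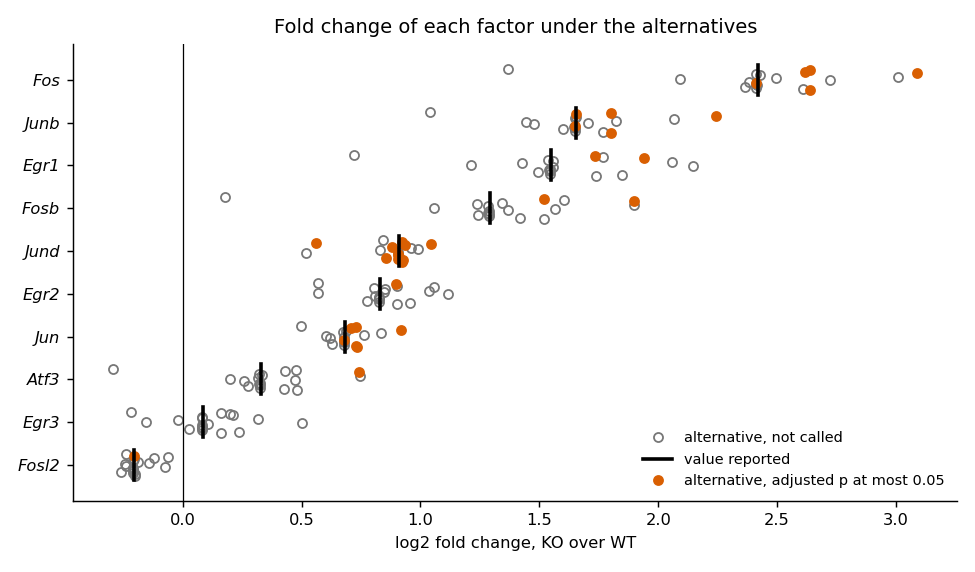
log2 fold change (KO over WT) of each factor as reported (black bar) and under 18 alternatives (circles, filled orange where the adjusted p was at most 0.05). Jund was called under 12 of the 18, Fos under 5, Egr3 under 0, and values below 0 occur for Fosl2, Egr3 and Atf3.

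Per kilobase of exon, the order of levels differed between the genotypes. In WT, Jun (98.3 CPM per kb) and Jund (86.2) overlapped over the libraries and both lay above Junb (29.5), which was followed by Fos (18.6), Egr1 (14.8), Atf3 (11.8) and Fosl2 (10.2), each overlapping its neighbour. Egr2 (2.01), Fosb (1.58) and Egr3 (0.83) were the lowest, below Fosl2 in every WT library. In KO, Jund (162 CPM per kb) and Jun (157) again had the highest means with overlapping values, but Jun in KO1 lay below Fos in KO2 and KO3, and Fos (98.8) and Junb (92.2) overlapped each other. Egr1 (43.2) lay above Atf3 (14.8) in every KO library, and Atf3 above Fosl2 (8.79). These are orders of mean levels per length, and changes of rank between genotypes were not tested.

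Over the 6 libraries, the genes with the pattern most like Fos were sought among 10971 genes with a mean of at least 10 CPM by Pearson's r of log2 CPM. The nearest 5 outside the members were Nrgn (0.9995), Ppp1r15a (0.995), Nek6 (0.995), Ccdc9 (0.993) and Phkg2 (0.993). Pearson's r does not measure the size of a change. The KO mean was only 1.07, 1.13 and 1.13 times the WT mean for Nek6, Ccdc9 and Phkg2, against 5.32 times for Fos. Nrgn, which encodes neurogranin, measured 34.5, 22.0 and 30.4 CPM in WT and 46.8, 76.4 and 77.5 CPM in KO. Ppp1r15a encodes GADD34, a stress-induced phosphatase subunit, and measured 65.3, 57.0 and 63.4 CPM in WT and 77.1, 93.2 and 92.6 CPM in KO. Of the members, Junb followed at 0.991, Egr1 and Jun at 0.973, Fosb at 0.959, Jund at 0.928 and Atf3 at 0.824, and Fosl2 had -0.65. Egr2 and Egr3 had a mean below 10 CPM and were not compared. These are descriptions over 6 libraries of which KO2 and KO3 were nearly the same sample.

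Of 48 other immediate early genes, edgeR called 2 higher in KO and 0 lower, where 1.38% of all genes tested were called higher and 0.906% lower. In 28 of the 48 every KO library lay above every WT library, as it did in 20.1% of all genes. In 3 of the 48 every KO library lay below every WT library (20.7% of all genes). The list's median log2 fold change was 0.31 (0.02 for all genes), with 40 of 48 above 0 (52.2% of all genes), and 26 passed an unadjusted p of 0.05 (25 higher, 1 lower), as did 27.3% of all genes. With the 6 libraries separate, edgeR called 21 higher and 1 lower (9.81% and 9.07% of all genes). Id3, an inhibitor of helix-loop-helix factors, rose from 166, 154 and 161 CPM in WT to 229, 211 and 212 CPM in KO (log2 fold change 0.46, SE 0.06, adjusted p = 0.0472, edgeR). Gadd45a, a growth arrest gene, rose from 12.8, 12.2 and 12.4 CPM to 18.8, 17.4 and 16.6 CPM (0.52, SE 0.08, adjusted p = 0.0496). Both were called again with the 6 libraries separate (0.44, adjusted p = 0.00804, and 0.50, adjusted p = 0.00957, edgeR). The list had 0 calls with library size alone as scaling, with the length and GC offset, and without WT1, WT2, WT3 or KO1. In both, KO1 was the highest KO library, unlike in the 10 factors.

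Of the 3 genes of this list with the highest levels, Cyr61 and Btg2 showed the library order of the factors and Mcl1 did not. Cyr61, which encodes a matricellular protein, measured 274, 119 and 161 CPM in WT and 389, 777 and 766 CPM in KO (adjusted p = 0.0993, edgeR). Btg2, an antiproliferative gene, measured 218, 174 and 209 CPM in WT and 293, 697 and 702 CPM in KO (adjusted p = 0.104). For both, KO1 lay between the WT libraries and the pair KO2 and KO3. Mcl1, an antiapoptotic gene, measured 349, 388 and 391 CPM in WT and 413, 406 and 398 CPM in KO (0.12, adjusted p = 0.329, edgeR, and 0.11, adjusted p = 0.229, with the 6 libraries separate). Zfp36, named after its values were seen, encodes a protein that degrades mRNAs with AU-rich elements and measured 125, 98.2 and 151 CPM in WT and 260, 446 and 456 CPM in KO (log2 fold change 1.52, adjusted p = 0.0587, edgeR). With the 6 libraries separate, Cyr61 (adjusted p = 0.0270), Btg2 (0.0289) and Zfp36 (0.0121) passed. The study chose Cyr61 and Zfp36 too from these libraries.

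**Figure D4:**
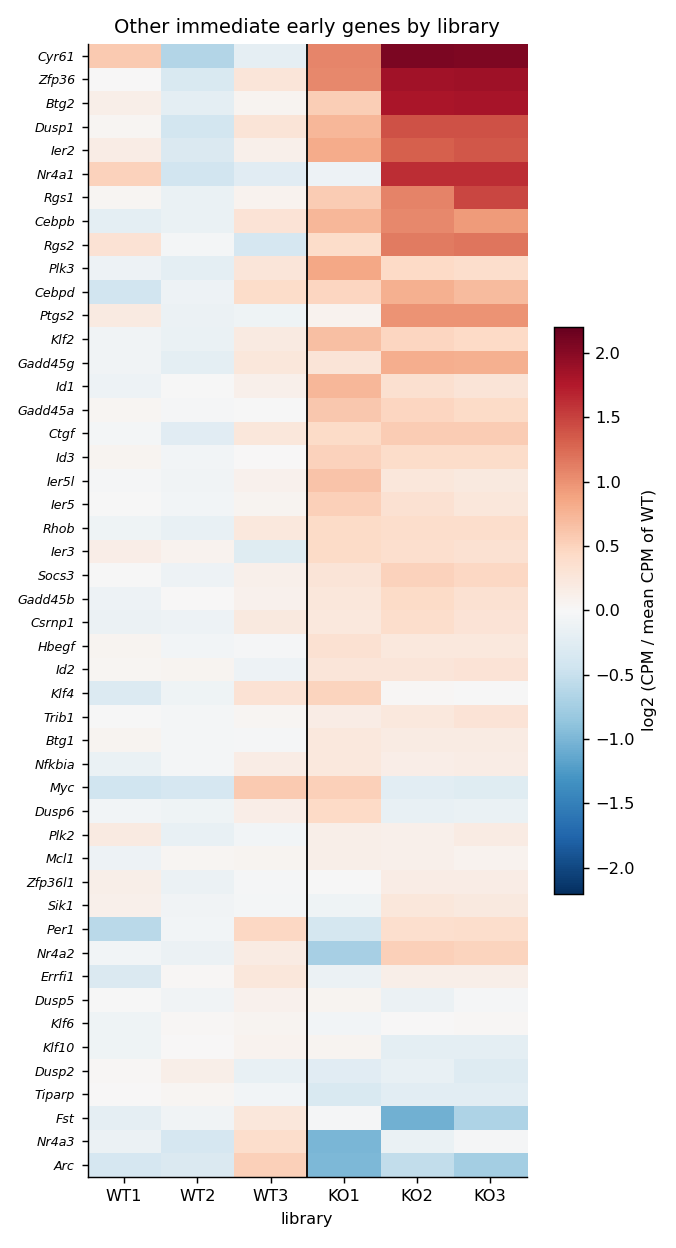
log2 of the level (CPM) of 48 other immediate early genes in each library over the gene's WT mean, red above and blue below it. Genes are ordered by the log2 fold change (KO over WT) of the reported comparison. The upper rows are strongest in KO2 and KO3, weaker in KO1, and lightest or blue in WT2, while Id3 and Gadd45a are even over the 3 KO libraries.

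The relatives of the members and the genes that act on them were not called: 0 of 16 tested relatives of the leucine zipper and EGR families and 0 of 19 upstream genes passed in edgeR, with 7 and 7 under 0.05 before adjustment (27.3% of all genes) and 11 of the 35 called by DESeq2 (21.0% of all genes). Egr4 was at or near the floor of 3 counts and was not tested. Among relatives with the smallest p, Atf6, a sensor of stress in the endoplasmic reticulum, measured 122, 122 and 124 CPM in WT and 99.4, 101.5 and 99.8 CPM in KO (-0.29 on the log2 scale, SE 0.04, adjusted p = 0.0501, edgeR). Maff, a small MAF protein, had means of 18.0 and 27.4 CPM (adjusted p = 0.0523) and Atf4, the main factor of the integrated stress response, 209 and 267 CPM (adjusted p = 0.0537). For Atf5 the log2 difference was 0.20 (adjusted p = 0.471, edgeR), and 0.12 (adjusted p = 0.616) with the 6 libraries separate. With the 6 libraries separate, Maff and Atf4 were called higher and Atf6 lower.

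The SRF cofactor gene Mkl2 had means of 104 CPM in WT and 83.9 CPM in KO (log2 fold change -0.31, adjusted p = 0.0510, edgeR). Rps6ka3, a ribosomal S6 kinase gene, had 104 and 83.3 CPM (-0.32, adjusted p = 0.0516). Mapk3, a kinase gene, had means of 318 and 406 CPM (0.35, adjusted p = 0.0636, edgeR). For Elk3, a partner of SRF, it was 0.01 (adjusted p = 0.955), and -0.04 (adjusted p = 0.795) with the 6 libraries separate. With the 6 libraries separate, Mapk3 was called higher and Mkl2 and Rps6ka3 lower.

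Summed markers of other cell types also differed between libraries, not all in the order of the factors. The summed level of 8 erythroid genes, led by Hbb-bs, was 2416 to 5552 CPM in WT and 3990 CPM in KO1. It was 19106 and 19842 CPM in KO2 and KO3, where the summed level of the early factors was highest. All 8 erythroid genes had a log2 fold change above 0 (52.2% of all genes). Of them edgeR called 0 (2.28% of all genes), and 0 lay above WT in every KO library (20.1%). The 12 hepatocyte genes, led by Hp, summed to 891 to 1101 CPM in WT and 1191 to 1542 CPM in KO, nearly all of it Hp (841 to 1028 and 1169 to 1444 CPM). The 11 hepatocyte genes tested had a median log2 fold change of 2.44, with 7 above WT in every KO library and 1 below (20.1% and 20.7% of all genes), 0 called by edgeR and 7 under 0.05 before adjustment (27.3%). With 6 separate libraries 6 of 10 tested were called higher (9.81%). In the other direction, 13 adipocyte genes, led by Car3, summed to 1563 to 2321 CPM in WT and 571 to 636 CPM in KO, and 12 cardiomyocyte genes, led by Myh6, to 3319 to 8008 CPM in WT and 1468 to 2147 CPM in KO. All 13 adipocyte and 10 of 12 cardiomyocyte genes lay below WT in every KO library (20.7% of all genes), and edgeR called 3 and 0 of them lower (0.906%), or 11 and 5 on 6 libraries (9.07%). The 16 squamous genes, high in WT3 and KO1, did not follow the factors. No gene of these 5 lists was at 0 in every library, and at least 1 CPM in all 6 was reached by 7 erythroid, 3 hepatocyte, 11 adipocyte, 11 cardiomyocyte and 4 squamous genes. Their part in the levels of the early factors was not tested.

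Stress genes were compared in the same way. The 12 heat shock genes, led by Hsp90ab1, summed to 1786 to 1928 CPM in WT and 2002 to 2112 CPM in KO, of which Hsp90ab1 alone had 1235 to 1302 CPM in WT and 1152 to 1285 CPM in KO. Of the 12, edgeR called 1 higher (1.38% of all genes), and 5 with the 6 libraries separate (9.81%), and 7 were higher in every KO library than in every WT library (20.1% of all genes). Hspa1a, Hspa1b and Hspb1 are named after their values were seen, and the study chose Hspa1a and Hspa1b too from these libraries. The inducible chaperone gene Hspa1a measured 6.22, 7.55 and 9.73 CPM in WT and 22.7, 109 and 112 CPM in KO1, KO2 and KO3, with KO1 again between WT and the pair KO2 and KO3 (log2 fold change 3.10, SE 0.66, adjusted p = 0.0691, edgeR; 3.37, adjusted p = 0.0171, with the 6 libraries separate). Its near-identical copy Hspa1b, with which reads may be shared, had 7.28, 7.75 and 12.8 CPM in WT and 27.2, 131 and 134 CPM in KO (3.12, adjusted p = 0.0716; 3.39, adjusted p = 0.0186, with the 6 libraries separate). Hspb1, a small heat shock gene, rose from 33.2, 29.1 and 38.0 CPM to 59.7, 70.0 and 69.7 CPM (0.96, SE 0.13, adjusted p = 0.0474, edgeR).

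Resident lung markers were summed too. Alveolar type 2 markers summed to 22097 to 23125 CPM in WT and 31360 to 33108 CPM in KO, with KO1 highest. Alveolar type 1 markers summed to 5989 to 6412 CPM in WT and 6844 to 7143 CPM in KO, with KO1 the lowest KO library. Of this sum Ager alone had 2036 to 2088 CPM in WT and 2768 to 2876 CPM in KO. EdgeR called 4 of 9 type 2 and 3 of 7 type 1 genes higher (1.38% of all genes). The type 1 genes did not all move alike: 4 of 7 had a log2 fold change above 0 (52.2% of all genes). In every KO library 4 of the 7 lay above WT and 2 below (20.1% and 20.7% of all genes). Summed endothelial markers led by Cdh5 (4418 to 4659 CPM in WT, 4327 to 5253 CPM in KO), fibroblast markers led by Col3a1 (2459 to 2962 and 2102 to 2602 CPM) and neutrophil markers led by S100a9 (79.8 to 120 and 84.5 to 110 CPM) overlapped between genotypes. Of the 7 fibroblast genes 2 had a log2 fold change above 0 (52.2% of all genes). Among them edgeR called 0 higher and 1 lower (1.38% and 0.906%), and of the endothelial and neutrophil genes it called 0 (2.28%). Macrophage markers led by Lyz2 summed to 4453 to 5290 CPM in WT and 5579 to 6059 CPM in KO, of which Lyz2 alone had 4208 to 4943 and 5361 to 5732 CPM. Of the 7 macrophage genes 3 had a log2 fold change above 0 (52.2% of all genes), with a median of -0.15, and edgeR called 0 higher and 1 lower (1.38% and 0.906%). Whether the differences in stress genes and lung markers bear on the members was not tested.

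**Figure D5:**
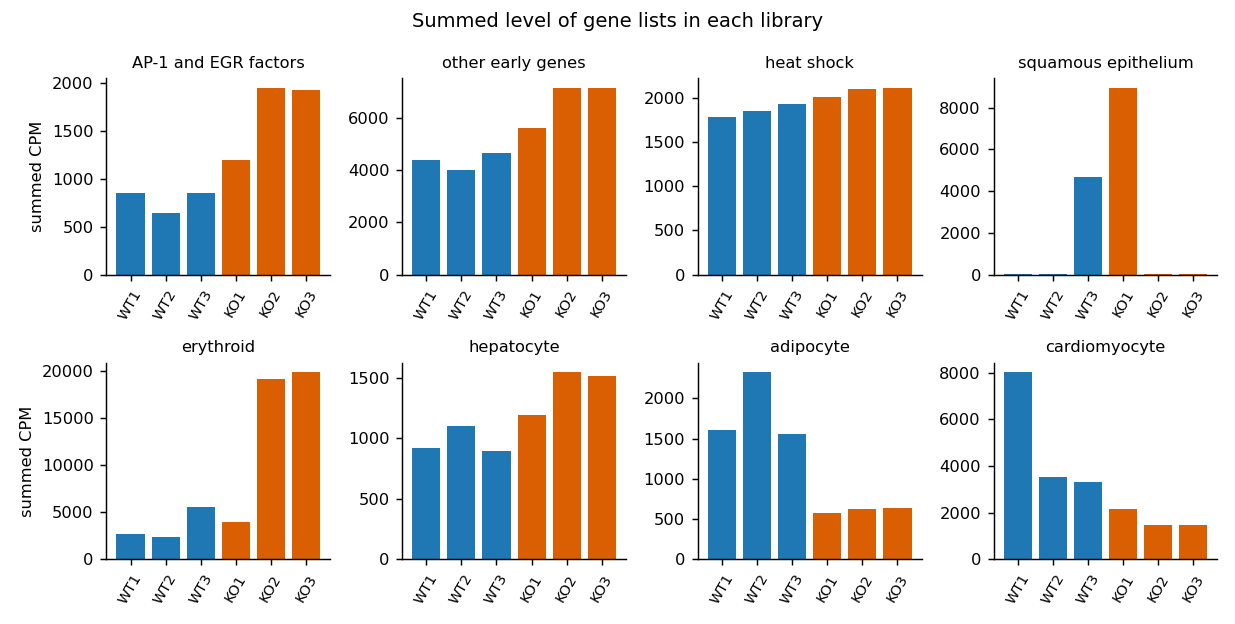
Summed level (CPM) of 8 gene lists in each library, WT in blue and KO in orange, each panel on its own axis from 0. The AP-1 and EGR factors, the other early genes and the erythroid genes are highest in KO2 and KO3, squamous genes stand out in WT3 and KO1, and adipocyte and cardiomyocyte genes are lower in all 3 KO libraries.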

How the data were processed

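Lung RNA of 3 WT and 3 KO mice was sequenced. The authors deposited raw counts, whole numbers of reads per gene; the submitters' processing notes name Trimmomatic 0.36, STAR 2.5.3a, Picard 2.9.0 and HTSeq 0.6.0 on mm10 (GRCm38). The annotation release is not given in the sources used here. The counts were tested in R 4.3.3 with edgeR 4.0.16 (filterByExpr, TMM scaling, two-sided quasi-likelihood test, Benjamini-Hochberg over all tested genes, call at an adjusted p of at most 0.05). Counts of KO2 and KO3 were summed, and their CPM averaged as 1 replicate. A standard error is the log2 fold change over the root of its F statistic. Positions, exon lengths and GC content came from GENCODE M21, which held 97.3% of the gene identifiers, and promoters from RefSeq. The test was checked on simulated data.

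The members, gene lists and the pooling of KO2 and KO3 were chosen with earlier results of these data known. All members were named, and of each other list of early, related or upstream genes the called ones (or the 3 with the smallest p) and the 3 most abundant, of which 1 is not reported here. Of each marker list the most abundant gene was named. Lists lacked Ahsp, Epb42, Tf and Adgre1, which were not matched. The alternatives included DESeq2 1.42.0, other scalings and filters, a length and GC offset and leaving out libraries.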

Additional observations from a re-analysis of the deposited data

How the results depend on the processing

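Of 180 values of the 10 factors under 18 alternatives (3 of them added after seeing the data), 147 kept direction and side of the threshold, 23 gained a call, 6 lost it and 4 changed sign. All 6 lost calls were of Jund. The sign changed for Egr3 without WT2 (-0.16), without WT3 (-0.02) and without KO2 and KO3 together (-0.22), and for Atf3 without that pair (-0.29). Leaving out 1 library, Egr3 ranged from -0.16 to 0.50. The cause was not tested.

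Counts of called genes are given for all genes, the factors, the 48 other early genes, and the relatives and upstream genes, reported as 426, 1, 2 and 0. They were 3402, 4, 22 and 6 with 6 libraries kept separate, 3919, 4, 25 and 11 with DESeq2, and 4671, 8, 30 and 12 with DESeq2 on 6 libraries. The length and GC offset gave 0, 0, 0 and 0, and 2382, 4, 18 and 8 with 6 libraries. Without WT3 and KO1 they were 2256, 7, 26 and 2 on 1 residual degree of freedom, and without KO2 and KO3 together 0, 0, 0 and 0. At least 10 counts in every library gave 937 genes, 4 other early genes and 4 relatives or upstream genes, RLE scaling 1 and 1 of the last 2 lists, library size alone 0 and 1, and no filter 1 other early gene. Leaving out 1 library gave 0 to 418 genes, 0 to 1 factors, 0 to 2 other early genes and 0 to 0 others. Leaving out any WT library gave 0 over all genes. Of the 426 calls 257 were higher in KO, but scaling by library size alone gave 117 of 306.

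Replicate numbers did not pair the samples: deviations of same-numbered samples correlated at -0.47, 0.54 and -0.64. With the replicate block on 6 libraries, 1157, 2, 7 and 4 were called.

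Every factor had at least 168 counts in every library. Whole-lung counts cannot show which cell types hold the transcripts.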
